A study of Mus musculus with 16 samples.

Results

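The genes described here are the nuclear-encoded subunits of oxidative phosphorylation, taken from the deposited gene table by their symbols alone. A gene was a member when its symbol was Nduf followed by a, b, c, s or v and a number, was *Sdha*, *Sdhb*, *Sdhc* or *Sdhd*, or began with Uqcr, with Cox4 to Cox8 or with Atp5 and a letter, and hyphenated symbols were left out. This gave 82 members among 25611 entries with 24623 distinct symbols. Of these, 36 belong to complex I, 4 to complex II, 8 to complex III, 18 to complex IV and 16 to complex V. The pattern also takes in *Cox7a2l*, known for a factor that joins complexes III and IV into supercomplexes. Whether its product does so in these mice was not tested. It takes in *Atp5s* too, whose product is not a structural part of complex V. *Ndufa4* is counted with complex I by its symbol, although its product is now assigned to complex IV. Subunits encoded by the mitochondrial genome were not analysed here.

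Oxidative phosphorylation hands electrons from NADH, at complex I, and from succinate, at complex II, through complexes III and IV to oxygen, and complex V makes ATP from the proton gradient built on the way. Complexes I, III, IV and V combine subunits from both genomes, and several subunits of complex IV come as isoforms that are typical of muscle, brown fat, lung or testis. In thyroid follicular cells, ATP drives the sodium pump on which iodide uptake depends.

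The study asked which thyroid genes respond to thyrotropin, which a low iodine diet raises, and what the transcription factor GLIS3 contributes. RNA from whole thyroid glands of 16 mice, 4 in each of 4 groups, was sequenced, and each library is called a mouse here by its group and replicate number. According to the paper, the glands came from females. The diet lasted 6 days by the description of the experiment. The labels give C57BL/6 as strain and 1 month as age for all of them, with weaning at 3 weeks. WT(ND) mice were wild type on the normal diet NIH31, and WT(LID) mice were wild type on the low iodine diet TD.95125 from Harlan. The groups *Glis3*-Pax8Cre(ND) and *Glis3*-Pax8Cre(LID) carried the allele tm2Amj of *Glis3* and the Cre allele tm1.1 (Mbu) of *Pax8* on a mixed B6;129 background, on those same diets. In them Cre is expressed from the *Pax8* gene and removes exon 5 of *Glis3* in cells that express *Pax8*. Other cells of the gland, and those that escape Cre, keep the exon. The Cre allele, and the background where it differed, went with the loss of that exon. Their parts in a difference between genotypes cannot be told apart.

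Total counts per mouse ran from 13892352 in *Glis3*-Pax8Cre(ND) mouse 1 to 461077969 in WT(ND) mouse 4. Levels are CPM, counts of a gene per 1e6 counts of its library, with library sizes scaled by the TMM method of edgeR, and values for a group are given in the order of mice 1 to 4. A count of 0 allows a level of up to 0.00674 CPM in the deepest library and 0.188 CPM in the shallowest, from 3 counts, for counting error only. *Glis3* was at 79.2, 85.8, 81.8 and 45.2 CPM among WT(ND) mice, 105, 93.0, 101 and 85.8 CPM among *Glis3*-Pax8Cre(ND) mice, 125, 174, 165 and 161 CPM among WT(LID) mice, and 150.3, 119.5, 204 and 185 CPM among *Glis3*-Pax8Cre(LID) mice. The knockout mice were thus not low in *Glis3*, but counts over the whole gene take in every exon and do not check the loss of exon 5. The paper reports from QRT-PCR that the exon was efficiently removed in their thyroids.

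The labelled tissue was checked against its markers. All 7 follicular markers, *Tg* the most abundant, were detected. *Tg*, the precursor of thyroid hormone, alone took 7.87% to 29.3% of the counts of a mouse. Its share was 21.4% to 29.3% over WT(ND), 13.5% to 18.65% over *Glis3*-Pax8Cre(ND), 19.6% to 26.8% over WT(LID) and 7.87% to 13.2% over *Glis3*-Pax8Cre(LID). *Tg* was called lower in the knockout on the normal diet (log2 -0.81) and under low iodine (-1.28). There 2 and 3 of the 7 follicular markers were called higher, and only *Tg* lower. The 82 members took 0.805% to 1.33%. Other cells were also present: the summed level of 5 brown adipocyte markers ran from 76.9 to 672 CPM, and that of 10 skeletal muscle markers from 3.80 CPM in *Glis3*-Pax8Cre(ND) mouse 3 to 1767 CPM in *Glis3*-Pax8Cre(ND) mouse 1. The sum of 5 thymocyte markers, *Rag1* the most abundant, reached 1963 CPM in *Glis3*-Pax8Cre(ND) mouse 4, 224 CPM in *Glis3*-Pax8Cre(LID) mouse 4, 155 CPM in WT(LID) mouse 3 and 105 CPM in WT(ND) mouse 1. Other sums differed between groups. The sum of 4 parathyroid and C cell markers, *Pth* the most abundant, was 6559 to 15431 CPM over the mice on the normal diet and 1468 to 5248 CPM over those on low iodine. Endothelial markers, 5 with *Kdr* the most abundant, summed to 496 to 590.2 CPM over WT(ND), 601 to 858 CPM over *Glis3*-Pax8Cre(ND), 1349 to 1524 CPM over WT(LID) and 593 to 810 CPM over *Glis3*-Pax8Cre(LID). White adipocyte markers, 5 with *Cfd* the most abundant, summed to 348 to 530.4 CPM over WT(ND), 166 to 371 CPM over *Glis3*-Pax8Cre(ND), 163 to 235 CPM over WT(LID) and 197 to 445 CPM over *Glis3*-Pax8Cre(LID). All 5 fell in WT(LID) against WT(ND), and in *Glis3*-Pax8Cre(LID) against WT(LID) *Adipoq* and *Retn* of these and *Elovl3* of the brown adipocyte markers were called higher. Macrophage markers, 5 with *Csf1r* the most abundant, summed to 121 to 179.8 CPM over WT(ND) and 203 to 246 CPM over *Glis3*-Pax8Cre(ND), and all 5 were called higher in the latter. The part of these cells in the members' levels was not tested. In bulk samples of this kind, fewer cells of a type and less RNA per cell cannot be told apart.

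Of the 82 members, 79 had enough counts to be tested. *Cox7b2*, an isoform gene of complex IV subunit VIIb, had 0 counts in all 16 mice, while its partner *Cox7b* was tested. *Cox8c*, the testis isoform of subunit VIII, had 0 to 5 counts in a mouse. *Ndufs5*, an accessory subunit of complex I, had 1 count in 1 mouse, and its model on chromosome 4 is overlapped by that of *BC002163*, with 31.1% of its 50-base windows found in other transcripts, so its level is uncertain.

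Levels of different genes were compared per kilobase of exon. Per complex, the most abundant members over the 16 mice were *Ndufa1*, a small membrane subunit of complex I, at 294 CPM per kilobase, *Sdhd*, a membrane anchor of complex II, at 104, *Uqcr11*, the smallest subunit of complex III, at 172, *Cox8a*, the ubiquitous subunit VIII of complex IV, at 390.3, and *Atp5a1*, the alpha subunit of complex V, at 297. By the longest transcript in place of all exons, *Sdha*, *Uqcrh* and *Atp5b* led complexes II, III and V, and *Ndufa1* and *Cox8a* remained first. At the other end stood *Atp5l*, subunit g of complex V, at 3.54, *Cox4i2*, the lung isoform of complex IV subunit IV, at 4.33, *Atp5s* at 4.75, *Cox6a2*, the muscle isoform of subunit VIa, at 5.06, and *Ndufb4*, an accessory subunit of complex I, at 5.26 CPM per kilobase. By the longest transcript *Ndufb4* was no longer among the 5 lowest, as *Ndufb7* stood below it. *Atp5l*, *Ndufb4* and *Ndufb7* were chosen after their values were seen. *Atp5l* had a mean of 22.8 CPM over 6.44 kb of annotated exons, with a longest transcript of 6.31 kb. *Ndufb7* had 43.6 CPM over 4.52 kb. Their low values per kilobase rest on these lengths, and which transcripts the glands held was not tested. *Ndufb4* shares 37.0% and *Atp5l* 6.36% of 50-base windows with other transcripts, and reads of such genes can be lost or split in counting.

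**Figure D1:**
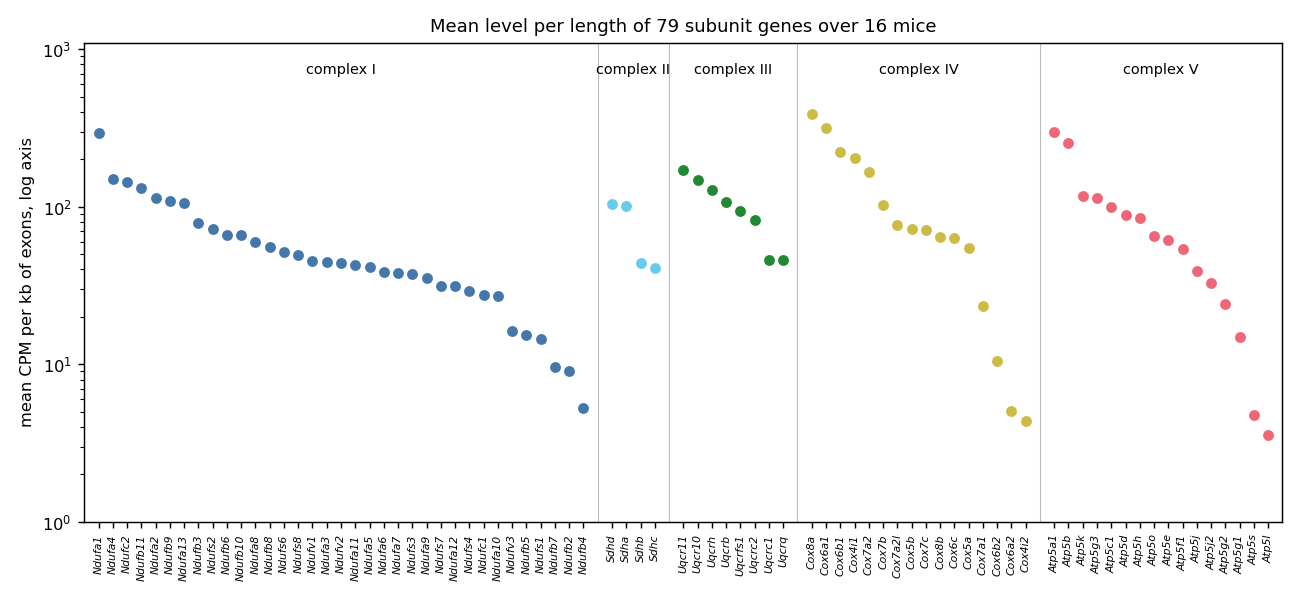
Mean level of each of the 79 tested members over the 16 mice, in CPM per kilobase of exon on a log axis, by respiratory complex. *Cox8a* stands highest at 390.3 and *Atp5l* lowest at 3.54 CPM per kilobase. The value of *Atp5l* is 22.8 CPM divided by 6.44 kb of annotated exons.

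The median spread between mice was smaller among the members than over all genes tested, which were not matched to them by level. Whether the members varied less than genes of similar level was not tested. The standard deviation of log2 CPM over the 16 mice had a median of 0.200 among the 79 members and 0.269 among the 16630 genes tested. The members with the most spread were all isoform genes of complex IV: *Cox6a2* at 1.14, *Cox8b* at 0.945, *Cox7a1* at 0.760, *Cox6b2* at 0.623 and *Cox4i2* at 0.425. The steadiest were *Atp5g2*, 1 of 3 genes for the same c subunit of complex V, at 0.124, and *Atp5a1* at 0.125.

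Genes were called changed at an adjusted p under 0.05 in the quasi-likelihood test of edgeR, with Benjamini-Hochberg adjustment over all 16630 genes. The comparisons share groups and so are not independent of each other. *Glis3*-Pax8Cre(LID) thyroids were compared with WT(LID) to ask what GLIS3 contributes when thyrotropin is high. There, 7 of 79 members were called (8.86%), against 30.2% of all genes. All 7 rose, against 14.9% of all genes, and 0 fell by edgeR, against 15.4% of all genes. edgeR placed 9 members higher and 1 lower at an unadjusted p under 0.05, and DESeq2 called 7 higher and 0 lower. The count of 7 became 3 without WT(LID) mouse 3 or *Glis3*-Pax8Cre(LID) mouse 2 and 4 without WT(LID) mouse 2, and without *Glis3*-Pax8Cre(LID) mouse 2 1 member fell. The members that rose were *Ndufc2*, *Cox4i1*, *Cox6b2*, *Cox7a2l*, *Ndufa1*, *Ndufa12* and *Ndufb11*, the last 2 of them named after their values were seen.

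On the normal diet, 5 of 79 members were called (6.33%), against 19.6% of all genes. Of them 2 rose between WT(ND) and *Glis3*-Pax8Cre(ND), *Cox6b2* and *Ndufc2*, against 10.3% of all genes. The 3 that fell were *Cox8b*, *Ndufa9* and *Ndufv3*, against 9.25% of all genes. The higher count was 1 without WT(ND) mouse 1, 2 or 4 or *Glis3*-Pax8Cre(ND) mouse 1 or 3. The lower count was 8 without WT(ND) mouse 1, 6 without *Glis3*-Pax8Cre(ND) mouse 1 and 5 without WT(ND) mouse 3. It was 1 without *Glis3*-Pax8Cre(ND) mouse 4, WT(LID) mouse 3 or 4 or *Glis3*-Pax8Cre(LID) mouse 3. It was 0 by edgeR without WT(ND) mouse 2 or 4 or *Glis3*-Pax8Cre(ND) mouse 2 or 3, with 3, 5, 9 and 10 members lower at an unadjusted p under 0.05 in that order. DESeq2 on all 16 mice called 6 lower.

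The response of the wild-type gland to low iodine, WT(LID) against WT(ND), included 13 of 79 members (16.5%), against 41.7% of all genes. Of these 5 rose, against 20.9% of all genes, and 8 fell, against 20.8%. With library size alone in place of TMM, 2 rose and 23 fell, and 31.9% of the calls over all genes were higher. Without WT(ND) mice 2 and 4 together, chosen after seeing the data, 4 rose and 1 fell. *Cox6b2*, *Cox4i2*, *Atp5g1*, *Cox7a2* and *Atp5g3* rose, and *Cox8b*, *Cox7a1*, *Ndufa10*, *Ndufv3*, *Atp5s*, *Sdha*, *Uqcrc2* and *Cox7a2l* fell. The lower count was 13 without WT(ND) mouse 1 or *Glis3*-Pax8Cre(LID) mouse 2, 4 without WT(ND) mouse 2 or 4 or WT(LID) mouse 4, and 3 without WT(LID) mouse 2.

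Between *Glis3*-Pax8Cre(ND) and *Glis3*-Pax8Cre(LID), the diet response without GLIS3, 8 of 79 members rose (10.1%), against 13.1% of all genes, and 0 fell by edgeR, against 12.3%, where calls in either direction made up 25.4% of all genes. At an unadjusted p under 0.05 edgeR placed 16 higher and 0 lower, and DESeq2 called 11 higher and 0 lower. *Cox6b2*, *Cox4i1*, *Ndufc1*, *Cox7a2*, *Cox7c*, *Atp5g1*, *Ndufa12* and *Atp5g3* rose. With a block for replicate number in these 8 mice, 3 of the 8 calls were made, and *Cox7c*, *Cox7a2*, *Ndufa12*, *Atp5g3* and *Atp5g1* were not called. The count was 3 without *Glis3*-Pax8Cre(ND) mouse 2 or *Glis3*-Pax8Cre(LID) mouse 2 and 4 without *Glis3*-Pax8Cre(ND) mouse 4. The interaction of genotype and diet, which tests whether the 2 diet responses differ, was higher for 3 of 79 members, *Cox8b*, *Cox4i1* and *Cox7a2l*, against 4.43% of all genes, and lower for 0 by edgeR, against 7.41% (11.8% in either direction). edgeR placed 20 higher and 1 lower at an unadjusted p under 0.05, and DESeq2 called 5 higher and 0 lower. The count of 3 was 0 by edgeR without WT(ND) mouse 4, WT(LID) mouse 2 or WT(LID) mouse 3, with 6 members higher at an unadjusted p under 0.05 in each case, and 1 without WT(ND) mouse 2, *Glis3*-Pax8Cre(ND) mouse 3 or 4, WT(LID) mouse 4 or *Glis3*-Pax8Cre(LID) mouse 2. Without that last mouse 1 member was lower.

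Library size alone, in place of TMM, shifted the median log2 fold change over the genes tested to 0.16 for *Glis3*-Pax8Cre(LID) against WT(LID), 0.14 for *Glis3*-Pax8Cre(ND) against WT(ND), -0.18 for WT(LID) against WT(ND) and -0.17 for *Glis3*-Pax8Cre(LID) against *Glis3*-Pax8Cre(ND). The share of higher genes among all calls was 69.1%, 74.4%, 31.9% and 27.7% in that order, where TMM gave 49.1%, 52.7%, 50.1% and 51.7%. The median over the 79 members in those 4 comparisons was 0.11, -0.12, -0.07 and 0.17 with TMM, beside 0.01, 0.02, -0.03 and -0.03 over all genes, and 0.26, -0.00, -0.23 and 0.04 with library size alone. Fold changes were positive for 68, 13, 24 and 75 of the 79 members with TMM and for 77, 37, 11 and 51 with library size alone. The interaction had a member median of 0.28 and 72 positive members with TMM, and 0.30 and 72 with library size alone.

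**Figure D2:**
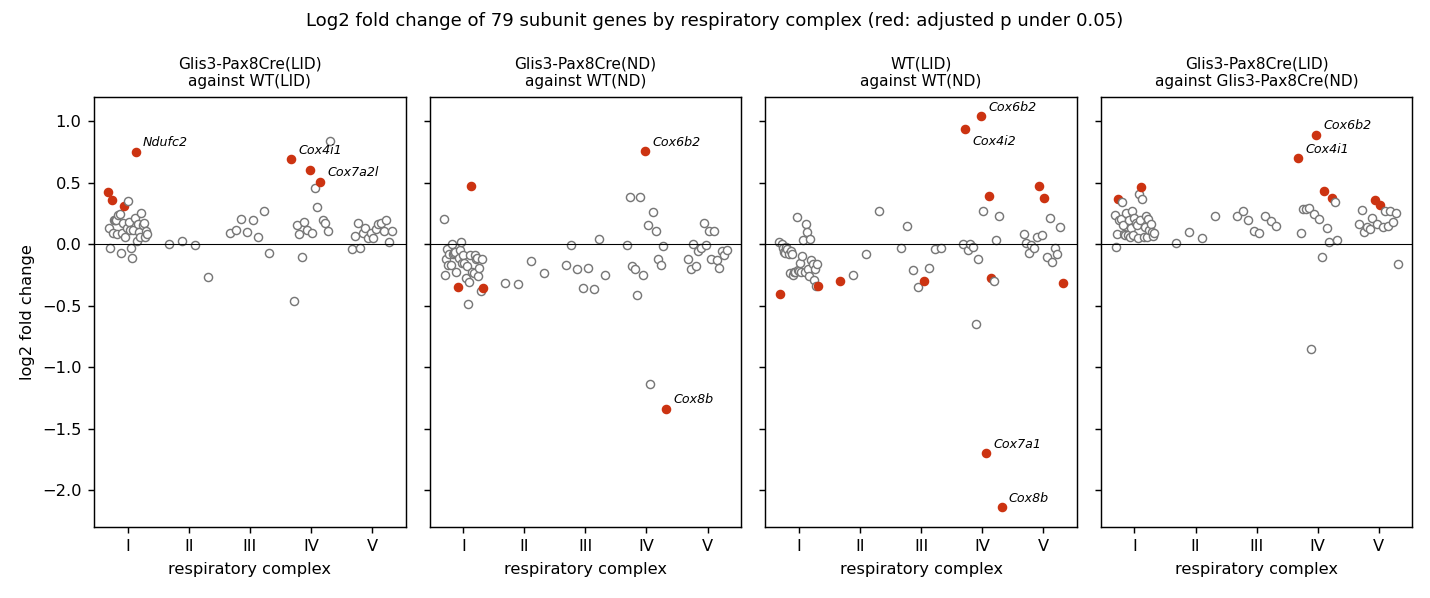
Log2 fold change of each of the 79 tested members in the 4 comparisons of 2 groups, by complex, with red for an adjusted p under 0.05. With TMM 75 of 79 members lie above 0 for *Glis3*-Pax8Cre(LID) against *Glis3*-Pax8Cre(ND) and 51 with library size alone, and 13 lie above 0 for *Glis3*-Pax8Cre(ND) against WT(ND), 37 with library size alone.

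The level of the members as a group also differed between mice of the same group. Over the 74 tested members other than the alternative isoforms of complex IV, the median deviation from the gene's mean over all mice, in log2 CPM, was -0.17, 0.22, -0.00 and 0.10 for WT(ND), 0.05, -0.15, -0.02 and -0.27 for *Glis3*-Pax8Cre(ND), 0.12, -0.14, -0.11 and -0.01 for WT(LID), and -0.00, 0.39, 0.01 and -0.05 for *Glis3*-Pax8Cre(LID). *Glis3*-Pax8Cre(LID) mouse 2 stood well apart from its group, and all 4 groups overlapped. The 2 WT(ND) mice with the highest medians, 2 and 4, also had the highest summed brown adipocyte markers, 672 and 398 CPM, and the lowest median fell in *Glis3*-Pax8Cre(ND) mouse 4, which held the most thymocyte transcripts. Without those 2 WT(ND) mice, a choice made after seeing the data, the member median was 0.01 for *Glis3*-Pax8Cre(ND) against WT(ND), with 42 members positive, 0.05 for WT(LID) against WT(ND), with 48 positive, and 0.11 for the interaction, with 66 positive. The other 2 comparisons moved little in that fit. *Glis3*-Pax8Cre(LID) was at 0.11 against WT(LID), with 67 positive, and at 0.16 against *Glis3*-Pax8Cre(ND), with 75 positive. The part of these cells in the members' levels was not tested.

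**Figure D3:**
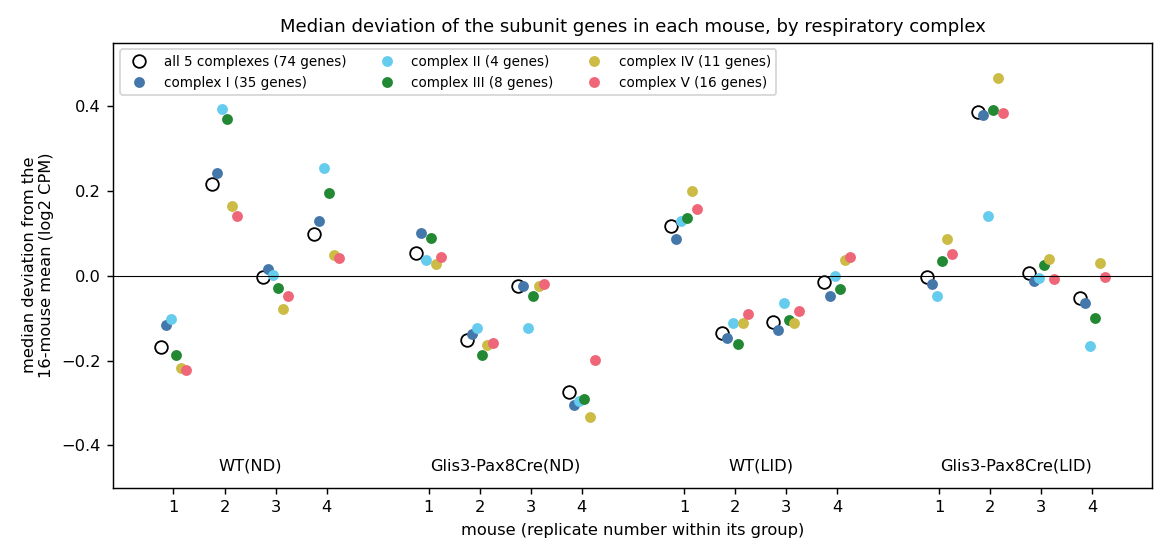
Median deviation of log2 CPM from each gene's mean over the 16 mice, for 74 members together and for each complex (35, 4, 8, 11 and 16 genes), with 1 point per mouse. *Glis3*-Pax8Cre(LID) mouse 2 is the highest over all complexes together at 0.39 and *Glis3*-Pax8Cre(ND) mouse 4 the lowest at -0.27.

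In complex I, 4 of 35 tested members rose in *Glis3*-Pax8Cre(LID) against WT(LID) (11.4%), where 14.9% of all genes did. *Ndufc2* (Entrez 68197, chr7:97400003-97407800, plus strand, mm10), an accessory subunit of the membrane arm, was at 74.1, 86.9, 87.8 and 81.5 CPM among WT(ND) mice and 130.2, 106, 141 and 82.8 CPM among *Glis3*-Pax8Cre(ND) mice. It was at 105, 85.0, 78.7 and 84.7 CPM among WT(LID) mice and 137, 174, 143 and 140.5 CPM among *Glis3*-Pax8Cre(LID) mice. All 4 *Glis3*-Pax8Cre(LID) mice were above all WT(LID) mice, whereas on the normal diet 3 of 4 knockout mice were above every wild-type mouse and mouse 4 lay among them. The log2 fold change between genotypes was 0.75 ± 0.143 (SE) under low iodine, with an adjusted p of 0.000897 in the quasi-likelihood test of edgeR with Benjamini-Hochberg adjustment, and 0.48 ± 0.142 on the normal diet, with an adjusted p of 0.0293. Over 26 alternatives the adjusted p ran from 8.78e-06 to 0.00524 under low iodine and from 0.00272 to 0.148 on the normal diet. The normal diet call was lost without WT(ND) mouse 1 (0.44), mouse 2 (0.50) or mouse 4 (0.48), and without *Glis3*-Pax8Cre(ND) mouse 1 (0.41) or mouse 3 (0.36), the values being log2 fold changes. It was also lost with only the 8 mice compared (0.49) and without WT(ND) mice 2 and 4 together (0.51). The interaction for *Ndufc2* was 0.27 ± 0.201, with an adjusted p of 0.420 in the same test, so the genotype effect was not shown to differ between diets.

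*Ndufa1* (Entrez 54405, chrX:37187589-37191238, minus strand) was at 124, 109.6, 98.5 and 109 CPM among WT(LID) mice and 133, 172, 150.1 and 137 CPM among *Glis3*-Pax8Cre(LID) mice, without overlap. The log2 fold change was 0.42 ± 0.125, with an adjusted p of 0.0181 in the same test, higher in 4 of 4 mice. Without WT(LID) mouse 3 it was 0.37 (adjusted p = 0.0676) and without *Glis3*-Pax8Cre(LID) mouse 2 it was 0.34 (adjusted p = 0.0609), both in the same test, where the range over 26 alternatives, DESeq2 among them, was 0.00249 to 0.0676. On the normal diet *Ndufa1* was at 103, 113, 107 and 113 CPM among WT(ND) mice and 123, 120.5, 160.2 and 98.2 CPM among *Glis3*-Pax8Cre(ND) mice, with mouse 4 of the latter below all wild-type mice, and it did not pass. The *Ndufa1* model overlaps *Rnf113a1* on the other strand, and as counting did not use strand, reads of the 2 genes cannot be told apart there.

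*Ndufa12* and *Ndufb11*, accessory subunits of the matrix arm and the membrane arm, were nearer the threshold. *Ndufa12* was at 51.5, 43.4, 40.2 and 46.8 CPM among WT(LID) mice and 49.4, 72.9, 55.8 and 55.4 CPM among *Glis3*-Pax8Cre(LID) mice, where 3 of 4 mice were above every WT(LID) mouse. Its log2 fold change of 0.36 ± 0.119 had an adjusted p of 0.0318 in the same test and was lost without WT(LID) mouse 2 (0.33), 3 (0.30) or 4 (0.37) or without *Glis3*-Pax8Cre(LID) mouse 2 (0.23). The call was also lost without the 2 mice highest in brown adipocyte markers (0.35) and the 4 highest in thymocyte markers (0.33). *Ndufb11* was 0.31 ± 0.112 higher, in 4 of 4 mice, with an adjusted p of 0.0495 in the same test, and 20 of 26 alternatives lost that call, among them the fits without WT(LID) mouse 2 (0.24), 3 (0.30) or 4 (0.31), without *Glis3*-Pax8Cre(LID) mouse 1 (0.33), 2 (0.22) or 4 (0.33), and without any 1 mouse of WT(ND) (0.30 to 0.31) or *Glis3*-Pax8Cre(ND) mouse 1, 2 or 3 (0.31 each). *Ndufa12* shares 17.2% and *Ndufb11* 9.55% of 50-base windows with other transcripts, and the *Ndufb11* model overlaps *Rbm10* on the other strand.

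The diet response without GLIS3 included *Ndufc1*, which pairs with *Ndufc2* in the membrane arm. It was at 36.9, 35.1, 38.3 and 32.7 CPM among *Glis3*-Pax8Cre(ND) mice and 45.1, 63.8, 45.5 and 42.4 CPM among *Glis3*-Pax8Cre(LID) mice. No value of the first group reached the second, although mouse 2 stood far above its own group. *Ndufc1* rose by a log2 of 0.46 ± 0.124, higher in 4 of 4 mice, with an adjusted p of 0.0134 in the same test, a call lost with library size alone (0.33) and with only the 8 mice (0.45). *Ndufa12* rose by 0.36 ± 0.119, with an adjusted p of 0.0353 in the same test, and that call was lost without WT(ND) mouse 4 (0.35), *Glis3*-Pax8Cre(ND) mouse 2 (0.33) or 4 (0.31), WT(LID) mouse 2 (0.35), or *Glis3*-Pax8Cre(LID) mouse 2 (0.24) or 3 (0.38), and with library size alone (0.23) or only the 8 mice (0.36).

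The complex I members that fell did so from WT(ND). *Ndufa9*, an accessory subunit where the matrix and membrane arms meet, was at 69.9, 96.5, 77.9 and 93.4 CPM among WT(ND) mice and 70.4, 64.3, 65.7 and 64.3 CPM among *Glis3*-Pax8Cre(ND) mice. *Ndufv3*, an accessory subunit of the NADH-oxidizing tip, was at 53.9, 65.9, 62.0 and 62.7 CPM among WT(ND) mice, 47.6, 51.0, 51.3 and 41.6 CPM among *Glis3*-Pax8Cre(ND) mice and 48.7, 48.7, 50.3 and 44.9 CPM among WT(LID) mice. *Ndufa10*, an accessory subunit of the membrane arm, was at 82.2, 128, 98.8 and 113 CPM among WT(ND) mice and 85.0, 77.9, 82.0 and 73.5 CPM among WT(LID) mice. In WT(ND), mice 2 and 4 were the highest for all 3 genes, and *Ndufv3* alone was without overlap between WT(ND) and the groups set against it. *Ndufa9* fell by 0.35 ± 0.102 in *Glis3*-Pax8Cre(ND) (adjusted p = 0.0249 in the same test), and the call was lost without WT(ND) mouse 2 (-0.28) or 4 (-0.29) or *Glis3*-Pax8Cre(ND) mouse 2 (-0.34) or 3 (-0.35), with library size alone (-0.23), with only the 8 mice (-0.33) and without WT(ND) mice 2 and 4 together (-0.15). *Ndufa10* fell by 0.41 ± 0.137 in WT(LID) (adjusted p = 0.0256 in the same test), and the call was lost without WT(ND) mouse 2 (-0.30) or 4 (-0.37) or WT(LID) mouse 2 (-0.39) or 4 (-0.37), and without WT(ND) mice 2 and 4 together (-0.18). *Ndufv3* fell by 0.35 ± 0.118 in *Glis3*-Pax8Cre(ND) (adjusted p = 0.0464 in the same test), a call that 19 of 26 alternatives lost. The single mice among them were WT(ND) mouse 2 (-0.32), 3 (-0.33) or 4 (-0.33), any mouse of *Glis3*-Pax8Cre(ND) (-0.39 to -0.28), any of WT(LID) (-0.35 to -0.34) and *Glis3*-Pax8Cre(LID) mouse 3 (-0.34). In WT(LID) *Ndufv3* fell by 0.34 ± 0.117 (adjusted p = 0.0278 in the same test), lost without WT(ND) mouse 2 (-0.31), 3 (-0.33) or 4 (-0.33) or WT(LID) mouse 1 (-0.34), 2 (-0.34) or 4 (-0.31), and without WT(ND) mice 2 and 4 together (-0.26).

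Across the 35 members of complex I, edgeR called 0 for the interaction, 12 were higher and 0 lower at an unadjusted p under 0.05, and DESeq2 called 1. The core subunits bind NADH and the iron-sulfur clusters. *Ndufs1*, the largest core subunit, was at 105, 165, 115 and 135 CPM among WT(ND) mice and 125, 102, 109.8 and 108 CPM among *Glis3*-Pax8Cre(ND) mice. *Ndufv1*, which binds NADH, was at 113, 166, 123 and 158 CPM among WT(ND) mice and 122, 106, 110.1 and 92.5 CPM among *Glis3*-Pax8Cre(ND) mice. Mice 2 and 4 of WT(ND) were again the high ones, and the groups overlapped for both genes. *Ndufv1* differed by a log2 of -0.38 ± 0.134 on the normal diet, with an adjusted p of 0.0578 in the same test, and was called without WT(ND) mouse 1 (-0.46) or 3 (-0.42), *Glis3*-Pax8Cre(ND) mouse 1 (-0.45) or *Glis3*-Pax8Cre(LID) mouse 2 (-0.38), by DESeq2 (-0.37) and with at least 10 counts in every mouse (-0.38). *Ndufb8*, an accessory subunit named after its values were seen, was at 199, 234, 110.1 and 219 CPM among WT(ND) mice and 157, 121, 149 and 116 CPM among *Glis3*-Pax8Cre(ND) mice. The low mouse 3 of WT(ND) decided its result: the log2 difference was -0.49 ± 0.188 (adjusted p = 0.0785 in the same test) with it and -0.67, and called, without it.

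Complex II joins the citric acid cycle to the chain. *Sdha*, its flavoprotein, was at 393, 580.3, 439 and 541 CPM among WT(ND) mice, 423, 399, 406 and 345 CPM among *Glis3*-Pax8Cre(ND) mice, 431, 379.5, 388 and 384 CPM among WT(LID) mice and 392, 411, 425 and 356 CPM among *Glis3*-Pax8Cre(LID) mice. WT(ND) mice 2 and 4 were above every other mouse, and mice 1 and 3 lay within or just above the range of the other groups. *Sdha* fell by 0.30 ± 0.114 in WT(LID) against WT(ND), with an adjusted p of 0.0428 in the same test, and 15 of 26 alternatives lost the call, with adjusted p-values over all 26 from 0.00692 to 0.688. The single mice among them were WT(ND) mouse 2 (-0.21) or 4 (-0.25), *Glis3*-Pax8Cre(ND) mouse 2 or 3 (-0.30 each), WT(LID) mouse 2 (-0.28), 3 (-0.29) or 4 (-0.29), and *Glis3*-Pax8Cre(LID) mouse 1 or 3 (-0.30 each), and without WT(ND) mice 2 and 4 together it was -0.07. *Sdhb*, the iron-sulfur protein, was at 88.9, 141, 94.5 and 126 CPM among WT(ND) mice and 107, 85.2, 83.9 and 84.2 CPM among *Glis3*-Pax8Cre(ND) mice, with the same 2 WT(ND) mice high, and was not called in any comparison. *Sdhd* ran the other way on diet in the wild type, at 98.8, 155, 111 and 139 CPM among WT(ND) mice and 166, 147, 135 and 158 CPM among WT(LID) mice. That difference of 0.27 ± 0.124 had an adjusted p of 0.0988 in the same test, and without WT(ND) mouse 2 it was 0.38 and called, as it was at 0.53 without WT(ND) mice 2 and 4 together.

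In complex III, edgeR and DESeq2 called 0 of 8 members between genotypes on either diet and 0 in the diet response without GLIS3. At an unadjusted p under 0.05, 2 were lower in *Glis3*-Pax8Cre(ND) than WT(ND) and 0 differed in the other 2 comparisons. *Uqcrc1*, a core protein, was at 175, 271, 198 and 253 CPM among WT(ND) mice and 210.1, 169, 164 and 157 CPM among *Glis3*-Pax8Cre(ND) mice. *Uqcrfs1*, the Rieske iron-sulfur protein, was at 113, 179.6, 126 and 159 CPM among WT(ND) mice and 131, 105, 111 and 102 CPM among *Glis3*-Pax8Cre(ND) mice. WT(ND) mice 2 and 4 were high for both, and the groups overlapped. Log2 differences were -0.36 ± 0.139 for *Uqcrc1* and -0.37 ± 0.136 for *Uqcrfs1*, with adjusted p-values of 0.0827 and 0.0707 in the same test. Both were called without WT(ND) mouse 1 (-0.45 and -0.46) and without *Glis3*-Pax8Cre(ND) mouse 1 (-0.46 and -0.45). *Uqcrc2*, the other core protein, named after its values were seen, was the only complex III member called in WT(LID) against WT(ND). It fell by 0.30 ± 0.113 (adjusted p = 0.0431 in the same test), and 15 of 26 alternatives lost the call, among them WT(ND) mouse 2 (-0.19) or 4 (-0.28), *Glis3*-Pax8Cre(ND) mouse 3 (-0.30), WT(LID) mouse 2 (-0.25), 3 (-0.28) or 4 (-0.30), *Glis3*-Pax8Cre(LID) mouse 1 (-0.30), 3 (-0.29) or 4 (-0.30), and WT(ND) mice 2 and 4 together (-0.09). Its model overlaps *Pdzd9* on the other strand.

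In complex IV, 3 of 16 tested members were called in *Glis3*-Pax8Cre(LID) against WT(LID) (18.8%), 2 on the normal diet (12.5%), 6 for diet in the wild type (37.5%) and 4 for diet without GLIS3 (25.0%). Calls in either direction made up 30.2%, 19.6%, 41.7% and 25.4% of all genes in that order. In the first and last comparison the complex IV calls were all higher, where 14.9% and 13.1% of all genes were. The interaction was called for 3 of 16 (18.8%), all higher, where 4.43% of all genes were higher and 11.8% called in either direction. *Cox4i1* (Entrez 12857, chr8:120668225-120674209, plus strand), the ubiquitous subunit IV, was at 239, 298, 257 and 308 CPM among WT(ND) mice, 295, 275, 303 and 223 CPM among *Glis3*-Pax8Cre(ND) mice, 304, 252, 260.5 and 286 CPM among WT(LID) mice and 393, 569, 414 and 404 CPM among *Glis3*-Pax8Cre(LID) mice. Every *Glis3*-Pax8Cre(LID) mouse was above all 12 others, mouse 2 furthest, and the other 3 groups overlapped. *Cox4i1* was higher in *Glis3*-Pax8Cre(LID) by a log2 of 0.69 ± 0.132 against WT(LID) (adjusted p = 0.000910) and 0.70 ± 0.132 against *Glis3*-Pax8Cre(ND) (adjusted p = 0.00143) in the quasi-likelihood test of edgeR with Benjamini-Hochberg adjustment. All 26 alternatives of the first and all 27 of the second kept these calls. On the normal diet the difference between genotypes was -0.01 ± 0.131, and the diet response of the wild type was 0.00 ± 0.131. The interaction, 0.70 ± 0.186, had an adjusted p of 0.0224 in the same test and was lost without WT(ND) mouse 4 (0.63), WT(LID) mouse 2 (0.64) or WT(LID) mouse 3 (0.65), and without WT(ND) mice 2 and 4 together (0.53).

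*Cox7a2l* (Entrez 20463, chr17:83501917-83514333, minus strand), the supercomplex assembly factor, was at 105, 112, 114 and 113 CPM among WT(ND) mice, 140.0, 109.8, 114 and 113 CPM among *Glis3*-Pax8Cre(ND) mice, 96.3, 87.8, 89.0 and 93.1 CPM among WT(LID) mice and 137, 137, 114 and 133 CPM among *Glis3*-Pax8Cre(LID) mice. The 4 WT(LID) mice were the lowest of all 16, and *Glis3*-Pax8Cre(LID) lay wholly above them. *Cox7a2l* fell by 0.28 ± 0.0835 with low iodine in the wild type (adjusted p = 0.0141) and was 0.51 ± 0.0837 higher in *Glis3*-Pax8Cre(LID) than WT(LID) (adjusted p = 0.000278), each in 4 of 4 mice in the same test. The genotype call held in all 26 alternatives, and the diet call was lost without WT(LID) mouse 2 (-0.25) and without WT(ND) mice 2 and 4 together (-0.26). Its interaction, 0.41 ± 0.118 (adjusted p = 0.0353 in the same test), was lost in 18 of 25 alternatives, among them any mouse of WT(ND) (0.38 to 0.42), *Glis3*-Pax8Cre(ND) mouse 2, 3 or 4 (0.37 to 0.39), any mouse of WT(LID) (0.37 to 0.42) and *Glis3*-Pax8Cre(LID) mouse 1, 2 or 4 (0.38 to 0.40). Some 17.7% of its 50-base windows are shared with other transcripts.

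**Figure D4:**
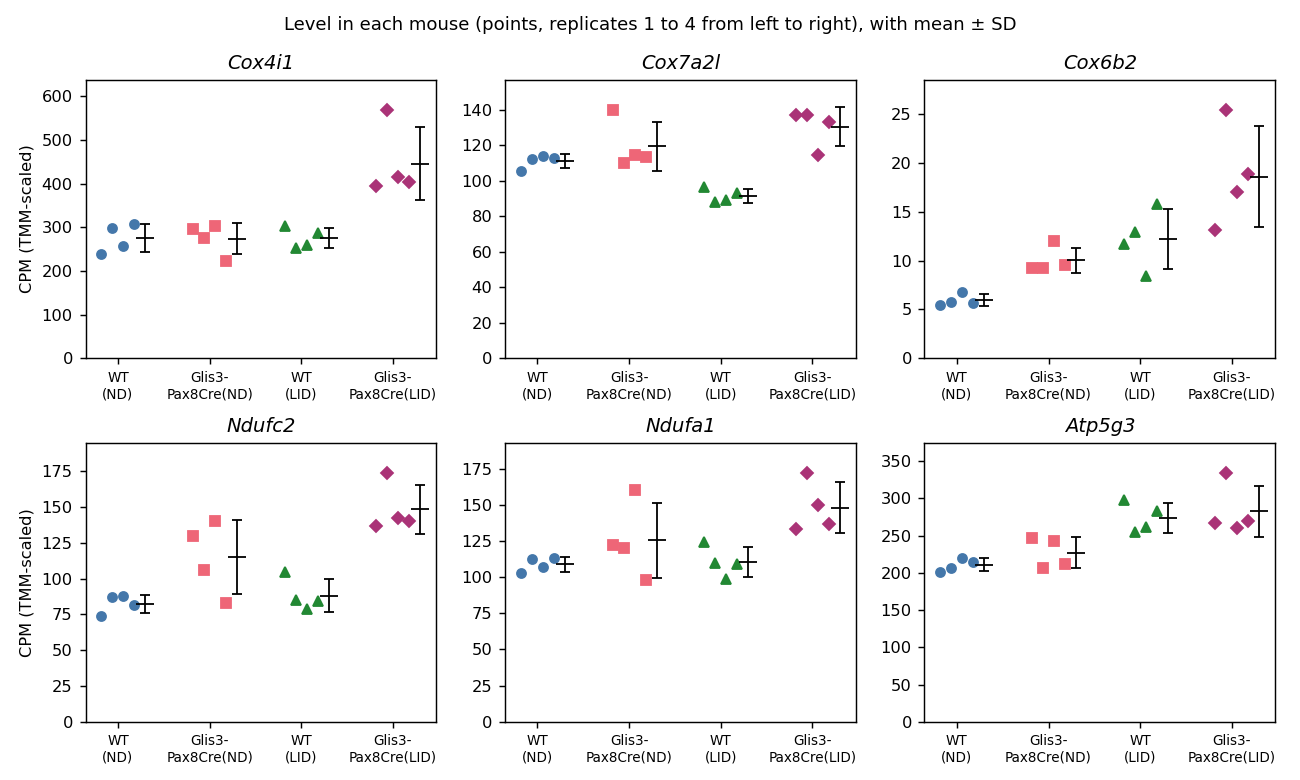
CPM of 6 members in each mouse (points) with the mean and standard deviation of each group of 4. *Cox4i1* in *Glis3*-Pax8Cre(LID), 393 to 569 CPM, lies above all 12 other mice, and *Cox7a2l* in WT(LID), 87.8 to 96.3 CPM, below them.

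*Cox7a2*, the subunit VIIa of most tissues, was at 101, 135, 128 and 123 CPM among WT(ND) mice, 161, 134, 169 and 121 CPM among *Glis3*-Pax8Cre(ND) mice, 181, 150.2, 148 and 161 CPM among WT(LID) mice and 186, 244, 184 and 175 CPM among *Glis3*-Pax8Cre(LID) mice. Low iodine mice were above their normal diet counterparts without overlap in both genotypes. It rose by 0.39 ± 0.130 in the wild type (adjusted p = 0.0230) and by 0.43 ± 0.130 without GLIS3 (adjusted p = 0.0238) in the same test. The first call was lost without WT(ND) mouse 1 (0.32) or WT(LID) mouse 1 (0.34) and with library size alone (0.24), and the second without *Glis3*-Pax8Cre(ND) mouse 2 (0.39) or 4 (0.35) or *Glis3*-Pax8Cre(LID) mouse 2 (0.31), with library size alone (0.30) and with only the 8 mice (0.42). *Cox7c*, a small subunit of complex IV, was at 68.6, 70.1, 77.9 and 62.9 CPM among *Glis3*-Pax8Cre(ND) mice and 80.7, 109.9, 85.7 and 87.0 CPM among *Glis3*-Pax8Cre(LID) mice, without overlap. *Cox7c* rose by 0.38 ± 0.115 (adjusted p = 0.0255 in the same test), a call lost without *Glis3*-Pax8Cre(ND) mouse 1 (0.37), 2 (0.38) or 4 (0.32) or *Glis3*-Pax8Cre(LID) mouse 2 (0.27), with library size alone (0.25), with only the 8 mice (0.37) and without the 4 thymocyte mice (0.35). Some 27.9% of its windows are shared with other transcripts. *Cox5a*, which sits on the matrix face of the enzyme, was at 92.8 to 156 CPM over the 16 mice and was not called in any comparison.

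*Cox6b2* (Entrez 333182, chr7:4751792-4753094, minus strand), known as the testis isoform of subunit VIb, was the member called in the most comparisons. It was at 5.47, 5.81, 6.82 and 5.68 CPM among WT(ND) mice, 9.28, 9.24, 12.0 and 9.58 CPM among *Glis3*-Pax8Cre(ND) mice, 11.7, 12.9, 8.43 and 15.8 CPM among WT(LID) mice and 13.1, 25.4, 17.0 and 18.8 CPM among *Glis3*-Pax8Cre(LID) mice. WT(ND) was lowest without overlap with any group, *Glis3*-Pax8Cre(LID) was highest but overlapped WT(LID), and *Glis3*-Pax8Cre(ND) and WT(LID) overlapped. The log2 fold change for diet was 1.04 ± 0.197 in the wild type (adjusted p = 0.000602) and 0.89 ± 0.196 without GLIS3 (adjusted p = 0.00416) in the same test, higher in 4 of 4 mice each time, and both calls held in all their alternatives. For genotype it was 0.75 ± 0.196 on the normal diet (adjusted p = 0.0148) and 0.60 ± 0.195 under low iodine (adjusted p = 0.0278) in the same test. The latter was lost without WT(LID) mouse 1 (0.58), 2 (0.63) or 3 (0.46) or *Glis3*-Pax8Cre(LID) mouse 2 (0.42) or 4 (0.60), with only the 8 mice (0.60) and without the 4 thymocyte mice (0.46). The former was lost without WT(ND) mice 2 and 4 together (0.71). The interaction of -0.15 ± 0.275 had an adjusted p of 0.782 in the same test. Per exon length *Cox6b2* made up 2.26% ± 0.404 (SD, n = 4) of *Cox6b1* and *Cox6b2* together in WT(ND), 4.38% ± 0.462 for *Glis3*-Pax8Cre(ND), 4.85% ± 1.20 for WT(LID) and 6.63% ± 1.08 for *Glis3*-Pax8Cre(LID), or 3.68%, 7.04%, 7.76% and 10.5% by the longest transcripts. *Cox6b1*, the ubiquitous partner, ran from 123 to 211 CPM and was not called in any comparison. Of 4 testis germ cell markers, *Tnp1* had 0 counts in all mice, and the sum, *Prm1* the most abundant, was 0.0163 to 0.268 CPM.

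*Cox7a1* (Entrez 12865, chr7:30184171-30186030, plus strand) and *Cox8b* (Entrez 12869, chr7:140898942-140900446, minus strand) are isoforms of heart, skeletal muscle and brown fat. *Cox7a1* was at 10.9, 38.5, 12.8 and 29.1 CPM among WT(ND) mice, 14.1, 10.1, 8.38 and 9.08 CPM among *Glis3*-Pax8Cre(ND) mice, 10.96, 4.46, 6.65 and 5.98 CPM among WT(LID) mice and 8.68, 13.9, 9.38 and 6.66 CPM among *Glis3*-Pax8Cre(LID) mice. *Cox8b* was at 26.4, 73.5, 28.3 and 53.7 CPM among WT(ND) mice, 24.6, 21.4, 14.5 and 11.8 CPM among *Glis3*-Pax8Cre(ND) mice, 17.8, 6.49, 7.75 and 9.25 CPM among WT(LID) mice and 15.1, 29.6, 19.8 and 9.19 CPM among *Glis3*-Pax8Cre(LID) mice. WT(ND) mice 2 and 4 were far above all others for both genes, while mice 1 and 3 were within reach of the other groups. In WT(LID) against WT(ND), *Cox8b* fell by 2.14 ± 0.443 (adjusted p = 0.00152) and *Cox7a1* by 1.70 ± 0.394 (adjusted p = 0.00313) in the same test, *Cox8b* in 4 of 4 mice. *Cox8b* also fell by 1.34 ± 0.433 in *Glis3*-Pax8Cre(ND) (adjusted p = 0.0440 in the same test), a call lost in 14 of 26 alternatives, which gave adjusted p-values from 0.00602 to 0.504. The single mice among them were WT(ND) mouse 2 (-1.01) or 4 (-1.24), *Glis3*-Pax8Cre(ND) mouse 2 (-1.44), 3 (-1.25) or 4 (-1.18), WT(LID) mouse 3 (-1.33) or 4 (-1.34) and *Glis3*-Pax8Cre(LID) mouse 1 (-1.34) or 3 (-1.33). *Cox7a1*, at -1.14 ± 0.389 on the normal diet, missed the threshold (adjusted p = 0.0536 in the same test), and was called without WT(ND) mouse 1 (-1.36) or 3 (-1.32), *Glis3*-Pax8Cre(ND) mouse 1 (-1.31) or WT(LID) mouse 1 (-1.12), by DESeq2 (-1.12) and with at least 10 counts in every mouse (-1.14).

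The interaction for *Cox8b* was 2.18 ± 0.610 (adjusted p = 0.0330 in the same test) and was lost in 10 of 25 alternatives. These were the fits without WT(ND) mouse 2 (1.85) or 4 (2.07), *Glis3*-Pax8Cre(ND) mouse 3 (2.08) or 4 (2.003), WT(LID) mouse 2 (1.99), 3 (2.04) or 4 (2.13), *Glis3*-Pax8Cre(LID) mouse 2 (1.85) or 3 (2.12), and WT(ND) mice 2 and 4 together (1.43). In WT(LID) against WT(ND), 4 of 5 brown adipocyte markers fell, as did 5 of 5 white adipocyte markers, while *Ppargc1a*, counted among the former, was at 0.26 and not called. The interaction was positive for all 10 of these markers and called for 5, *Elovl3* (3.07) and *Cidea* (2.36) of brown and *Plin1* (1.59), *Adipoq* (1.53) and *Retn* (1.52) of white adipocytes. The sum of the 5 brown adipocyte markers, all detected and *Ucp1* the most abundant, was 226, 672, 273 and 398 CPM among WT(ND) mice, 233, 185, 132 and 119 CPM among *Glis3*-Pax8Cre(ND) mice, 129, 91.5, 76.9 and 80.4 CPM among WT(LID) mice and 164, 181, 221 and 90.7 CPM among *Glis3*-Pax8Cre(LID) mice. *Ucp1*, the defining uncoupling protein of brown fat, was at 123, 483, 185 and 247 CPM among WT(ND) mice and 38.4, 3.37, 3.07 and 7.56 CPM among WT(LID) mice, without overlap. *Ucp1* was at 134, 85.2, 50.04 and 50.5 CPM among *Glis3*-Pax8Cre(ND) mice and 45.7, 40.5, 43.8 and 9.28 CPM among *Glis3*-Pax8Cre(LID) mice, again lower on low iodine without overlap but not called at -1.19, while *Cox8b* was at 0.04 there. Without WT(ND) mice 2 and 4, *Cox8b* remained called in WT(LID) against WT(ND) at -1.40, *Cox7a1* was -0.75 and not called, and in *Glis3*-Pax8Cre(ND) against WT(ND) *Cox8b* was -0.60 and not called. The part of brown fat beside the gland in these values was not tested.

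**Figure D5:**
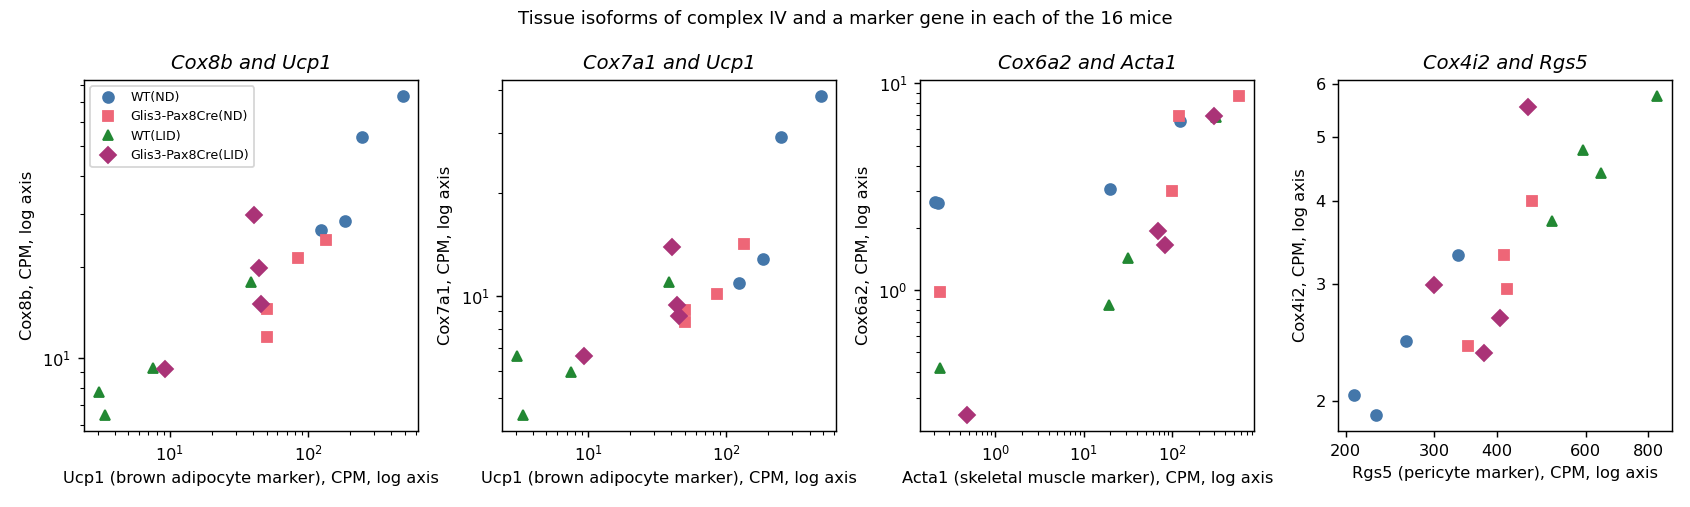
Complex IV isoform genes against the most abundant marker of a cell type in each of the 16 mice, in CPM on log axes: *Cox8b* and *Cox7a1* with *Ucp1*, *Cox6a2* with *Acta1*, and *Cox4i2* with *Rgs5*. WT(ND) mouse 2, at 483 CPM of *Ucp1*, has the highest *Cox8b* and *Cox7a1*, 73.5 and 38.5 CPM.

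*Cox6a2*, the subunit VIa of heart and skeletal muscle, was at 2.66, 3.10, 6.57 and 2.64 CPM among WT(ND) mice, 8.72, 6.97, 0.973 and 3.02 CPM among *Glis3*-Pax8Cre(ND) mice, 0.417, 0.847, 6.88 and 1.42 CPM among WT(LID) mice and 1.93, 6.98, 0.247 and 1.65 CPM among *Glis3*-Pax8Cre(LID) mice. High and low mice occurred in every group, and no comparison was called. Skeletal muscle markers, all 10 detected and *Acta1* the most abundant, summed to 5.55, 136, 558 and 6.43 CPM among WT(ND) mice, 1767, 740, 3.80 and 524 CPM among *Glis3*-Pax8Cre(ND) mice, 4.07, 83.3, 1409 and 143 CPM among WT(LID) mice and 285, 1105, 4.59 and 337 CPM among *Glis3*-Pax8Cre(LID) mice. The highest mouse of each group was the same for the markers and for *Cox6a2*, and the part of muscle was not tested. Its model overlaps *Itgad* on the other strand. *Cox6a1*, the ubiquitous partner, ran from 136 to 306 CPM and was not called in any comparison, although all 4 *Glis3*-Pax8Cre(ND) mice, 136 to 204 CPM, were below all 4 WT(ND) mice, 209 to 278 CPM.

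*Cox4i2* (chr2:152754173-152765037, plus strand) was at 2.05, 1.91, 3.32 and 2.47 CPM among WT(ND) mice, 2.95, 3.99, 3.32 and 2.43 CPM among *Glis3*-Pax8Cre(ND) mice, 3.73, 4.41, 4.78 and 5.76 CPM among WT(LID) mice and 2.67, 5.53, 2.36 and 2.99 CPM among *Glis3*-Pax8Cre(LID) mice. All WT(LID) mice were above all WT(ND) mice, and in *Glis3*-Pax8Cre(LID) mouse 2 stood apart from 3 mice that were below every WT(LID) mouse. It rose by 0.94 ± 0.264 with low iodine in the wild type (adjusted p = 0.00976 in the same test), a call lost without WT(ND) mice 2 and 4 together (0.80). Between genotypes under low iodine the difference was -0.46 ± 0.262 (adjusted p = 0.204 in the same test), and without *Glis3*-Pax8Cre(LID) mouse 2 it was -0.80 and called. Its share of *Cox4i1* and *Cox4i2* together per exon length was 1.73% ± 0.524 (SD, n = 4) in WT(ND), 2.23% ± 0.375 for *Glis3*-Pax8Cre(ND), 3.24% ± 0.625 for WT(LID) and 1.43% ± 0.323 for *Glis3*-Pax8Cre(LID). Of 7 markers of pericytes and smooth muscle, all detected, 4 rose in WT(LID) against WT(ND) and 4 were lower in *Glis3*-Pax8Cre(LID) than WT(LID), while *Kcnj8*, at -0.55 and 0.43, and *Abcc9*, at 0.23 and 0.35, were not called in either and did not follow. Their sum, with *Rgs5* the most abundant, was 480, 471, 619 and 617 CPM among WT(ND) mice, 763, 862, 767 and 674 CPM among *Glis3*-Pax8Cre(ND) mice, 920, 1161, 1097 and 1360 CPM among WT(LID) mice and 726, 796, 800 and 635 CPM among *Glis3*-Pax8Cre(LID) mice. WT(LID) was above every other group in that sum. Of 5 endothelial markers, 5 rose and 5 were lower in the same 2 comparisons, and the part of these cells in *Cox4i2* was not tested. Its model overlaps *Bcl2l1* on the other strand.

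Complex V had 0 calls between genotypes on either diet by edgeR, with 0 members at an unadjusted p under 0.05 and 0 calls by DESeq2. Its calls were for diet, and most were in the c subunit, which 3 genes encode with different targeting peptides and the same mature protein. *Atp5g3* (Entrez 228033, chr2:73908447-73911326, minus strand) was at 202, 207, 220.5 and 215 CPM among WT(ND) mice, 247, 206, 242 and 211 CPM among *Glis3*-Pax8Cre(ND) mice, 297, 254, 261 and 283 CPM among WT(LID) mice and 267, 334, 260.4 and 269.8 CPM among *Glis3*-Pax8Cre(LID) mice. *Atp5g1* was at 57.7, 56.2, 64.6 and 58.4 CPM among WT(ND) mice, 75.5, 62.6, 71.2 and 58.1 CPM among *Glis3*-Pax8Cre(ND) mice, 88.9, 77.1, 78.4 and 85.0 CPM among WT(LID) mice and 68.5, 111, 83.6 and 78.97 CPM among *Glis3*-Pax8Cre(LID) mice. Low iodine mice of both genotypes were higher in *Atp5g3* without overlap, and for *Atp5g1* the overlap was between the knockout groups. *Atp5g3* rose by 0.38 ± 0.0922 in the wild type (adjusted p = 0.00401) and by 0.32 ± 0.0923 without GLIS3 (adjusted p = 0.0195) in the same test, the latter lost without *Glis3*-Pax8Cre(ND) mouse 2 (0.28) or *Glis3*-Pax8Cre(LID) mouse 2 (0.23), with only the 8 mice (0.31) and without the 4 thymocyte mice (0.31). With library size alone both calls were lost (0.22 and 0.19). *Atp5g1* rose by 0.48 ± 0.123 in the wild type (adjusted p = 0.00589) and by 0.36 ± 0.124 without GLIS3 (adjusted p = 0.0458) in the same test. The former was lost with library size alone (0.32) and without WT(ND) mice 2 and 4 together (0.43). The latter was lost in 21 of 27 alternatives, among them any 1 mouse of WT(ND) (0.34 to 0.36), *Glis3*-Pax8Cre(ND) mouse 2 (0.33), 3 (0.39) or 4 (0.29), any of WT(LID) (0.34 to 0.36) and *Glis3*-Pax8Cre(LID) mouse 2 (0.21), 3 (0.36) or 4 (0.39).

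*Atp5g2*, the other c subunit gene, was at 35.6, 38.9, 40.3 and 41.0 CPM among WT(ND) mice and 44.6, 38.6, 37.3 and 43.3 CPM among WT(LID) mice, overlapped between all groups and was not called. Windows shared with other transcripts made up 10.6% of *Atp5g1* and 14.8% of *Atp5g2*. *Atp5a1* and *Atp5b*, the alpha and beta subunits that form the catalytic head, were the most abundant members by CPM, at 792 to 1032 and 886 to 1293 CPM, and edgeR called neither in any comparison. DESeq2 called *Atp5b* higher, by 0.28, in *Glis3*-Pax8Cre(LID) against *Glis3*-Pax8Cre(ND). *Atp5s* fell by 0.32 ± 0.0979 in WT(LID) against WT(ND), from 9.85 to 11.6 CPM down to 8.20 to 8.82 CPM without overlap (adjusted p = 0.0169 in the same test), and was lost without WT(ND) mouse 3 (-0.26) and without WT(ND) mice 2 and 4 together (-0.35).

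Members whose groups of 4 did not overlap were also counted. In *Glis3*-Pax8Cre(LID) against WT(LID), 5 of 79 members lay wholly above and 0 below, where 17.7% and 17.9% of all genes did. On the normal diet 1 lay above and 3 below, against 9.58% and 9.96%. For diet in the wild type 6 lay above and 4 below, against 23.7% and 23.3%, where the calls were 5 higher and 8 lower, and for diet without GLIS3 9 lay above and 0 below, against 11.8% and 10.2%.

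Promoter windows of RefSeq on GRCm38.p6, 250 bases before to 50 after the start of a gene, were matched for 68 of the 82 members. They held a median of 19 CpG dinucleotides (2 to 43), beside 8 (0 to 67) over 27025 genes. Letters of motifs bound by factors known for mitochondrial genes were searched on both strands. NRF1's GCGCATGCG was in 8 members (11.8%) and 1.95% of all genes, YY1's AAGATGGCG in 7 (10.3%) and 1.64%, GABPA's CCGGAAGT in 5 (7.35%) and 4.31%, and the ESRRA letters TCAAGGTCA in 2 (2.94%) and 0.466%. In all, 21 members held 1 or more of these and 47 none. A match is a description of letters, not a binding site. The letters of a TATA box, TATAAAA, were added after the windows had been read, and were in 3 members (4.41%) and 6.39% of all genes. The windows shown were chosen after the search. *Ndufc1* was taken for the YY1 letters, beside its partner *Ndufc2*, which holds none. Both genes were called higher, *Ndufc1* for diet without GLIS3 and *Ndufc2* between genotypes on both diets. *Cox6a1* was taken for the letters of NRF1 and *Atp5g3* for those of ESRRA. The pair *Cox8a* and *Cox8b* was taken for the ubiquitous and the muscle and brown fat isoform, with 19 and 2 CpGs. Capitals mark the motif found, and in *Cox6a1* they join NRF1 matches on both strands that overlap. Positions are chr3:51408906-51409205 (minus strand) for *Ndufc1*, chr7:97399753-97400052 (plus) for *Ndufc2*, chr5:115348909-115349208 (minus) for *Cox6a1*, chr19:7217567-7217866 (minus) for *Cox8a*, chr7:140900397-140900696 (minus) for *Cox8b* and chr2:73911277-73911576 (minus) for *Atp5g3*, each written 5′ to 3′ along the gene.
Ndufc1: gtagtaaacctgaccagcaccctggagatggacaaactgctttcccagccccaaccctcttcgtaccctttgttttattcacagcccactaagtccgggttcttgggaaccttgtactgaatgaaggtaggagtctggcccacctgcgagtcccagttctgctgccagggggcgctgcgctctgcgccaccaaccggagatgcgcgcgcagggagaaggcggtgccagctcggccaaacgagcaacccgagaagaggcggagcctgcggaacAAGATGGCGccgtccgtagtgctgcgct
Ndufc2: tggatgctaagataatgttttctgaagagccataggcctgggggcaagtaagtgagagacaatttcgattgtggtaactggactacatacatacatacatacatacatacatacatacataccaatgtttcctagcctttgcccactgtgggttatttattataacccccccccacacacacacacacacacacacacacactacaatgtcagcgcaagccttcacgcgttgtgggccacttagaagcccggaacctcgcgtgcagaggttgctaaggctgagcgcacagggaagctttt
Cox6a1: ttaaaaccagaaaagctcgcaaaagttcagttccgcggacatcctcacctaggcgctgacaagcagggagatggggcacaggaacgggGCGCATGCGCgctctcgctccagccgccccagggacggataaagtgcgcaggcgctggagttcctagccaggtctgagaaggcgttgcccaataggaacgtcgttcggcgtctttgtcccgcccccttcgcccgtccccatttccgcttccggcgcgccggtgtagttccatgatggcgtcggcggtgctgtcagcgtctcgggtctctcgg
Cox8a: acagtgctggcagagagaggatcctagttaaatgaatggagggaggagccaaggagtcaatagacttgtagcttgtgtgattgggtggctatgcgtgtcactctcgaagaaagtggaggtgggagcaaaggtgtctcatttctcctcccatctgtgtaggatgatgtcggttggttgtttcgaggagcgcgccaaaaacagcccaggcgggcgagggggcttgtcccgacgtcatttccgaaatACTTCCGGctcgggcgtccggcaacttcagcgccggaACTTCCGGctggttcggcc
Cox8b: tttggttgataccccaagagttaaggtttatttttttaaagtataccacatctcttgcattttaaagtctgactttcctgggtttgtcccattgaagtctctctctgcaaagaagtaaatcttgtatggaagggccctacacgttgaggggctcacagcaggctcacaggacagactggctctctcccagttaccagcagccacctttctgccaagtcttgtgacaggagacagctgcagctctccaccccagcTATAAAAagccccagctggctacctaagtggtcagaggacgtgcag
Atp5g3: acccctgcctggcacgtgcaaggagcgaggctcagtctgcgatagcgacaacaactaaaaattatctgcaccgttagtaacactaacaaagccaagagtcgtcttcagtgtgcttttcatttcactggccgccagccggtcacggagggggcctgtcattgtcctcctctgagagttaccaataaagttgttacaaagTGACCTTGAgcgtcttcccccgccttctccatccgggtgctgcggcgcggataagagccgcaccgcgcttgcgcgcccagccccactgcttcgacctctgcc

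The other genes of the pathway were counted from lists of known genes. Of 43 tested assembly factors of the complexes, 10 were called in *Glis3*-Pax8Cre(LID) against WT(LID) (23.3%), all higher, against 14.9% of all genes higher and 30.2% called in either direction. Among them were *Sdhaf3* and *Sdhaf1*, assembly factors of complex II, higher by 0.43 each (adjusted p = 0.00483 and 0.0212), and *Ecsit*, of complex I, by 0.40 (adjusted p = 0.0121) in the same test, each in 4 of 4 mice. For diet in the wild type 3 assembly factors rose and 9 fell (27.9% together), against 41.7% of all genes. The call of *Sdhaf1* was lost without WT(LID) mouse 2 (0.36) or 3 (0.39) or *Glis3*-Pax8Cre(LID) mouse 2 (0.39). Among 78 proteins of the mitochondrial ribosome, 24 rose in *Glis3*-Pax8Cre(LID) against WT(LID), led by *Mrpl1* at 0.56 ± 0.0993 (adjusted p = 0.000544), *Mrps35* at 0.51 ± 0.0961 (adjusted p = 0.000837) and *Mrpl15* at 0.42 ± 0.0836 (adjusted p = 0.00139) in the same test, each in 4 of 4 mice, and 17 rose for diet without GLIS3. Those shares, 30.8% and 21.8%, stand beside 14.9% and 13.1% of all genes. Calls in either direction made up 30.2% and 25.4% of all genes there. For diet in the wild type 4 of these 78 genes rose and 11 fell (19.2% together), against 41.7% of all genes. Between genotypes on the normal diet 2 rose and 2 fell (5.13% together), against 19.6%.

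Of 13 citric acid cycle genes, 7 fell in *Glis3*-Pax8Cre(ND) against WT(ND) (53.8%), where 9.25% of all genes fell. There 4 of 5 brown and 5 of 5 white adipocyte markers had negative fold changes, *Plin1* of the white being called. In WT(LID) against WT(ND) 7 fell and 1 rose (61.5%), where 20.8% of all genes fell and 20.9% rose. In the latter comparison 4 of 5 brown and 5 of 5 white adipocyte markers also fell, and the part of fat in these genes was not tested. The 1 was *Fh1*, fumarate hydratase, named after its values were seen. *Fh1* was at 131, 207, 128 and 139.8 CPM among WT(ND) mice, 184, 119, 153 and 161 CPM among *Glis3*-Pax8Cre(ND) mice, 541, 497, 448 and 530.3 CPM among WT(LID) mice and 517, 589, 549 and 496 CPM among *Glis3*-Pax8Cre(LID) mice. Both low iodine groups were far above both normal diet groups. Its log2 fold change with diet was 1.74 ± 0.155 in the wild type (adjusted p = 6.59e-07) and 1.80 ± 0.156 without GLIS3 (adjusted p = 2.61e-06) in the same test. *Mdh2*, malate dehydrogenase, was 0.39 higher in *Glis3*-Pax8Cre(LID) than WT(LID) (adjusted p = 0.0214 in the same test), in 4 of 4 mice, and lost the call without WT(LID) mouse 2 (0.37) or 3 (0.38) or *Glis3*-Pax8Cre(LID) mouse 2 (0.28).

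Regulators of the subunit genes included 2 of 12 that rose in *Glis3*-Pax8Cre(LID) against WT(LID) (16.7%), where 14.9% of all genes did. *Tfam*, which packages and transcribes mitochondrial DNA, was at 32.4, 31.6, 31.8 and 33.7 CPM among WT(LID) mice and 36.8, 42.9, 39.2 and 42.4 CPM among *Glis3*-Pax8Cre(LID) mice, without overlap, and was 0.32 ± 0.0785 higher (adjusted p = 0.00627 in the same test). *Tfb2m*, a mitochondrial transcription factor, was 0.30 ± 0.0876 higher there in 4 of 4 mice (adjusted p = 0.0155), lost without WT(LID) mouse 3 (0.26) or 4 (0.27) or *Glis3*-Pax8Cre(LID) mouse 3 (0.27), and fell by 0.33 ± 0.0876 with low iodine in the wild type (adjusted p = 0.00628) in the same test. *Pprc1*, a coactivator of NRF1, rose by 0.60 ± 0.174 with low iodine in the wild type (adjusted p = 0.0119 in the same test), with overlap between the groups. The other 9, *Esrra*, *Gabpa*, *Gabpb1*, *Nrf1*, *Polrmt*, *Ppargc1a*, *Ppargc1b*, *Tfb1m* and *Yy1*, were not called in either of these comparisons. Of 8 subunits outside the symbol pattern, *Ndufa4l2*, a relative of a complex IV subunit, was at 6.52, 6.19, 8.48 and 8.18 CPM among WT(ND) mice, 13.9, 14.9, 16.8 and 19.8 CPM among WT(LID) mice and 7.88, 14.5, 7.76 and 6.26 CPM among *Glis3*-Pax8Cre(LID) mice. It rose by 1.15 ± 0.238 with low iodine in the wild type (adjusted p = 0.00119) and was 0.85 ± 0.237 lower in *Glis3*-Pax8Cre(LID) than WT(LID) (adjusted p = 0.0131) in the same test, where 3 of 4 mice were below every WT(LID) mouse. In the first of these comparisons 5 of 5 endothelial markers and 4 of 7 pericyte and smooth muscle markers rose. In the second 5 of 5 and 4 of 7 were lower, and the part of these cells in *Ndufa4l2* was not tested.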

How the data were processed

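The counts per gene were deposited by the authors for 16 mice. By the submitters' processing notes and the methods, reads were aligned with STAR 2.5 to mm10 and counted with featureCounts 1.5.0-p1 on RefSeq models, without strand, and the authors tested with DESeq2. The methods name NextSeq500 or NovaSeq sequencers but no machine per library, so instrument and group cannot be told apart.

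Here edgeR 4.0.16 (R 4.3.3) kept 16630 genes by filterByExpr, scaled by TMM and fitted 1 mean per group with a robust quasi-likelihood fit, with Benjamini-Hochberg adjustment and calls at an adjusted p under 0.05. Exon lengths (union of exons) and shared windows came from GENCODE vM21. No 2 mice of a group were duplicates (24 pairs, chi-square over degrees of freedom 34.5 to 381). Deviations from group means correlated between knockout mice of the same replicate number on the 2 diets (r 0.254 to 0.680). The sample labels name no such link between mice. The highest r were for mice 4 (0.680) and 3 (0.612). In both groups mouse 4 had the most thymocyte transcripts (1963 and 224 CPM) and mouse 3 the fewest of muscle (3.80 and 4.59 CPM). The part of these transcripts in r was not tested.

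Named were all isoform families, up to 5 called members of largest fold change per direction and comparison, the most abundant per length in each complex, catalytic or defining subunits, all regulators, up to 3 called genes of each other list and the top marker of each cell type. The members and lists were chosen with earlier results of these data known. Alternatives were DESeq2 1.42.0, RLE scaling, library size alone, *Tg* left out, other filters, only the 8 mice compared, the replicate block, each mouse left out, longest transcripts, and a stricter threshold. Leaving out the mice highest in brown adipocyte or thymocyte markers, and the block within the knockout mice, were added once the data had been seen.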

Additional observations from a re-analysis of the deposited data

Results flagged for a closer look

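In 140 groups of 4 values, 15 had 1 mouse whose gap to its nearest neighbour was larger than Dixon's 95% limit allows relative to the range of the group. Chance alone does this in about 1 in 20 groups. The 15 came from 7 mice, and 8 of them were *Glis3*-Pax8Cre(LID) mouse 2. That mouse was high for *Cox4i1* (569 CPM), *Cox6b1* (211 CPM), *Cox7a2* (244 CPM), *Atp5g3* (334 CPM), *Ndufc2* (174 CPM), *Ndufv3* (66.9 CPM), *Ndufc1* (63.8 CPM) and *Uqcrc1* (228 CPM). *Glis3*-Pax8Cre(ND) mouse 1 was high for *Cox7a2l* (140.0 CPM) and *Sdhb* (107 CPM), mouse 3 of that group was high for *Cox6b2* (12.0 CPM), and mouse 4 was low for *Cox6a1* (136 CPM). *Cox6a2* was high in WT(ND) mouse 3 (6.57 CPM) and WT(LID) mouse 3 (6.88 CPM), and *Sdha* in WT(LID) mouse 1 (431 CPM).

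With all 16 mice, the interaction term was called for *Cox4i1* (log2 0.70), *Cox7a2l* (0.41) and *Cox8b* (2.18). These calls were lost in 4, 18 and 10 of 25 alternatives, and none was made without WT(ND) mice 2 and 4 together.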

How the results depend on the processing

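Counts of members called were recomputed under each alternative. For *Glis3*-Pax8Cre(LID) against WT(LID), 7 higher calls became 13 with library size alone, 4 without the 4 mice with the most thymocyte markers and 0 by edgeR at the stricter threshold (adjusted p below 0.01, fold above 2). The 0 lower calls became 1 with only the 8 mice and 1 without the 2 mice with the most brown adipocyte markers. In *Glis3*-Pax8Cre(ND) against WT(ND), the 2 higher calls became 1 with only the 8 mice, 0 without the brown adipocyte mice and 0 at the stricter threshold. The 3 lower calls became 6 with DESeq2, 5 with at least 10 counts in every mouse, 1 with no filter, 1 without the thymocyte mice, and 0 with library size alone, with only the 8 mice, without the brown adipocyte mice and at the stricter threshold. At an unadjusted p under 0.05 edgeR still placed 2, 7 and 0 members lower in the first 3 of these and 2 higher without the brown adipocyte mice. In WT(LID) against WT(ND), 5 higher calls became 2 with library size alone and 1 at the stricter threshold, and 8 lower calls became 23 with library size alone, 1 without the brown adipocyte mice and 2 at the stricter threshold. In *Glis3*-Pax8Cre(LID) against *Glis3*-Pax8Cre(ND), 8 higher calls became 2 with library size alone, 2 with only the 8 mice, 4 without the thymocyte mice and 0 at the stricter threshold. The 3 higher interactions became 5 with DESeq2, 0 without the brown adipocyte mice, where 3 had an unadjusted p under 0.05, and 0 at the stricter threshold. The cause was not tested.

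With 1 mouse left out in turn, higher and lower counts ran from 3 to 8 and 0 to 1 in *Glis3*-Pax8Cre(LID) against WT(LID), 1 to 2 and 0 to 8 in *Glis3*-Pax8Cre(ND) against WT(ND), 4 to 6 and 3 to 13 in WT(LID) against WT(ND), 3 to 10 and 0 to 0 in *Glis3*-Pax8Cre(LID) against *Glis3*-Pax8Cre(ND), and 0 to 4 and 0 to 1 for the interaction.

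With the replicate block in all 16 mice the higher and lower counts were 5 and 0, 2 and 3, 5 and 6, 6 and 0, and 3 and 0 in that order, and the block in the 8 knockout mice gave 3 higher. In the other 3 comparisons of 2 groups, r between mice of the same number ran from -0.491 to 0.187, -0.419 to 0.00679 and -0.184 to 0.178. There 1, 0 and 2 of 4 mice correlated best with their own number, beside 3 of 4 between the 2 knockout groups.

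Among named members, 36 called results met 941 alternatives: 716 kept the call, 225 lost it and 0 changed direction. Of 4129 alternatives to 159 uncalled results, 64 gained a call and 209 changed sign. For other named genes, 121 of 1065 alternatives lost a call, 44 of 2941 gained one and 184 changed sign without one. *Cox7b2*, *Cox8c* and *Ndufs5* had too few counts to be tested.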
